A study of Rattus norvegicus with 6 samples.

Results

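The semaphorin, plexin, neuropilin, Eph and ephrin genes encode the ligands and receptors of the main contact-dependent and secreted axon guidance systems. Members were all probes, controls left out, whose gene symbol began with Sema3 to Sema7, Plxn, Epha, Ephb, Efna or Efnb, or was Nrp1 or Nrp2. The array files carry no gene name column, so symbols came from the RefSeq accession of each probe. This gave 39 genes among 15154 named genes and 50 probes among 30367, and each gene is represented by its brightest probe. Probes without a matching accession stayed unnamed, so each family is covered only as far as its probes were named. Hippocampal RNA came from male Wistar rats that underwent orchidectomy, the removal of both testes, or sham surgery at 2 months of age, 2 weeks before they were killed. There were 3 orchidectomized and 3 sham samples, labelled as biological replicates, and each was run on a separate 1-colour Agilent array. No transgene, drug or hormone replacement is named for either group. The unit throughout is log2 intensity minus the array's 75th percentile, so 0 is the level of a probe at that percentile, and every difference is orchidectomized minus sham unless said otherwise. Levels of different probes were not compared with each other.

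Semaphorins signal through plexins, whose cytoplasmic part acts on small GTPases and so on the cytoskeleton of growth cones and spines. Class 3 semaphorins are secreted and mostly need neuropilins as co-receptors, classes 4 to 6 span the membrane, and Sema7a is held by a lipid anchor. Eph receptors are receptor tyrosine kinases that bind ephrins on neighbouring cells. Ephrin-A ligands are lipid-anchored and ephrin-B ligands span the membrane, and signals can run both ways across the contact. In the hippocampus both systems are known for layer-specific axon targeting, mossy fibre pruning and spine formation, and in the adult they remain on neurons, glia and vessels.

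The array labelled sham 2 stood apart from the other 5. On it 16 of 17 measured choroid plexus markers were more than 1 log2 unit above the median of the other 5 arrays, and their summed intensity, in units of each array's 75th percentile, was 409 against 23.1 to 41.3 on the orchidectomized arrays and 10.9 and 15.6 on sham 3 and sham 1. All 11 markers of glutamatergic neurons were more than 1 log2 unit lower there, with a sum of 0.243 against 30.0 to 41.5, and Slc17a7, Grin2b, Tbr1, Prox1 and Rasgrp1 were not well above background on it. None of the 11 was below background on all of the other 5 arrays, whose labelled tissue is the hippocampus. The summed level on that array was 44.5 for ependyma (1.20 to 2.39 on the others), 61.6 for meninges and fibroblasts (3.22 to 4.84) and 24.8 for endothelium (7.37 to 9.72). It was 2.07 for GABAergic neurons (47.3 to 58.5), 4.06 for astrocytes (66.3 to 95.4), 19.0 for oligodendrocytes (72.1 to 94.6), 8.02 for microglia (16.2 to 21.5) and 6.47 for oligodendrocyte precursors (6.11 to 7.24). Thalamus and striatum markers had 3.46 and 14.7 there. On sham 1 these 2 lists had 3.37 and 4.19, while the orchidectomized arrays and sham 3 had 1.37 to 1.80 and 2.13 to 4.01. A sum follows its brightest markers, and some lists were mixed on the array labelled sham 2. Counted past 1 log2 unit from the median of the other 5 arrays, 1 of 7 endothelial markers was higher and 2 were lower. The higher and lower counts were 1 and 3 of 5 for oligodendrocyte precursors, 2 and 2 of 4 for thalamus, and 2 and 4 of 6 for striatum. For meninges and fibroblasts they were 6 and 1 of 9, for ependyma 4 and 0 of 7, and for microglia 0 and 4 of 7. Among the 5 other arrays the choroid plexus sum was higher and the glutamatergic sum lower (30.0 to 40.3 against 40.8 and 41.5) in the orchidectomized group than on sham 1 and sham 3. By the mean log2 level of the markers the groups overlapped for both lists. The choroid plexus means were -3.18, -3.47 and -4.03 on orchidectomized 1 to 3 against -3.66 and -4.45 on sham 1 and sham 3. For glutamatergic neurons they were -0.57, -0.60 and -0.93 against -0.62 and -0.44. The part of these marker shifts in the results was not tested, and each main result is given with and without the array labelled sham 2. In bulk tissue, fewer cells of a type and less RNA per cell cannot be told apart.

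The comparison asked whether guidance gene transcripts of the hippocampus differ after removal of the testes. In limma, 0 of 37 tested members passed a Benjamini-Hochberg adjusted p of 0.05 over 6 arrays, where 0% of all 24634 tested probes passed, and 0 of 37 without the array labelled sham 2, where 0% of 25212 probes passed. The members with an unadjusted p under 0.05 also numbered 0 in both comparisons, against 0.731% of all probes over 6 arrays and 2.71% over 5 arrays. All 37 were well above background on each of the 5 arrays other than sham 2, so none entered the 5-array test through one group alone. Epha3, Ephb2, Sema3a, Sema3d and Sema3e were not well above background on the array labelled sham 2. These genes therefore entered the 6-array test through the orchidectomized group alone. Efna5 and Epha1 were not tested. Over 6 arrays the median difference of the members was 0.44, with 29 higher and 8 lower, beside -0.03 over all 12633 named genes tested. It was 0.25 for the members well above background on every array. Without the array labelled sham 2 the median of the tested members was -0.06, with 15 higher and 22 lower, beside -0.03 over 12863 named genes. The sign of the median thus turned with that single array. The 95% intervals of the 37 differences in the 5-array fit ran from -1.46 to 1.1, and for 34 members they lay within 1 log2 unit of 0. The exceptions were Nrp2, Sema6c and Sema6d.

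**Figure D1:**
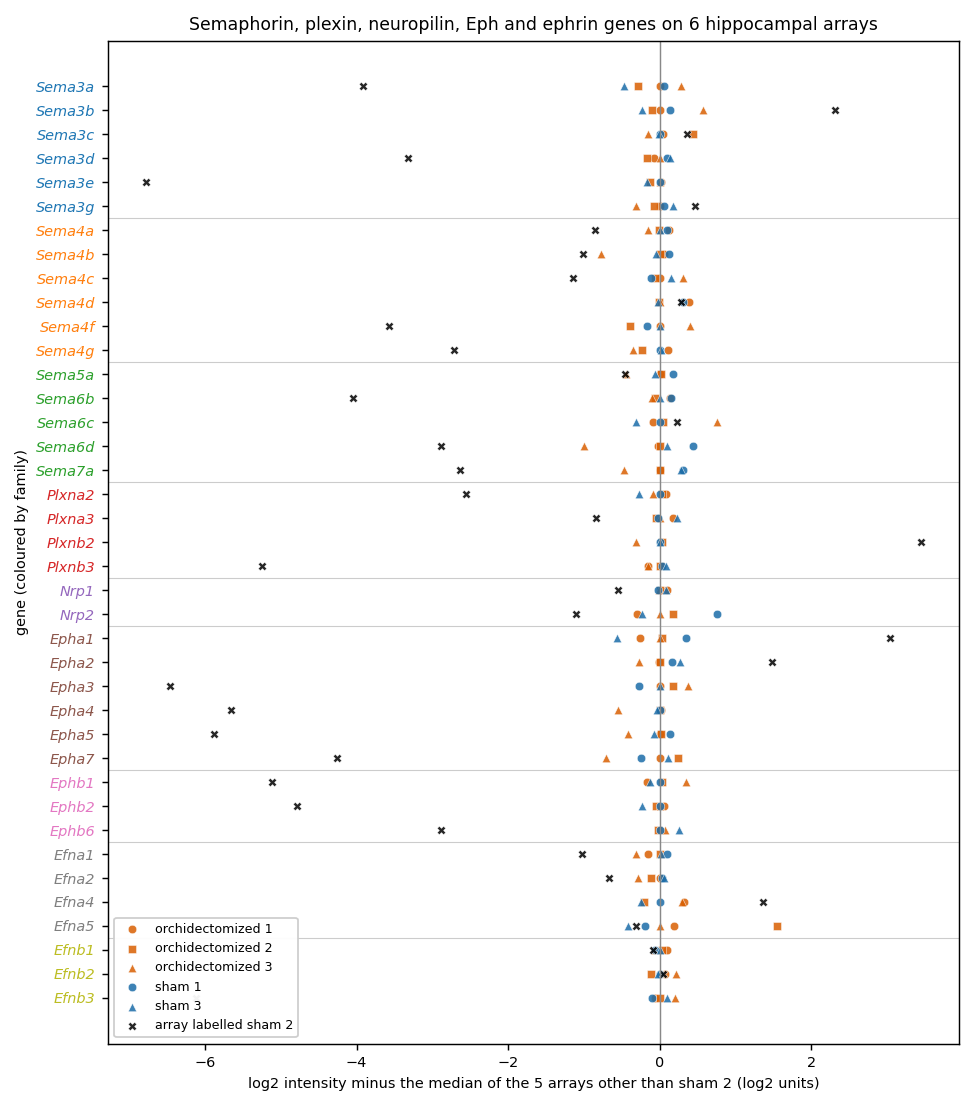
Each row is 1 of the 39 genes, coloured by family, and each symbol is 1 array: the x axis gives the log2 intensity minus the median of the 5 arrays other than sham 2. Orchidectomized arrays (orange) and sham 1 and sham 3 (blue) lie close to 0 for most genes, while the array labelled sham 2 (black cross) lies below all other 5 arrays for 28 genes and above all 5 for 6.

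Some members had groups that did not overlap. Over 6 arrays 1 of 37 members had every orchidectomized value above every sham value, where 2.94% of named genes did, and 2 had the reverse, where 5.11% did. These were Epha3 on the high side and Epha2 and Sema3g on the low side. Epha3 had entered the 6-array test through the orchidectomized group alone. Without the array labelled sham 2, 1 member (2.70%) lay wholly above, beside 5.84% of named genes, and 8 (21.6%) lay wholly below, beside 10.8%. The 8 were Efna1, Efna2, Epha2, Plxnb3, Sema3d, Sema3g, Sema6d and Sema7a, and the member above was again Epha3. No difference among them passed the test, and the lowest of the 5 arrays was orchidectomized 3 for 16 of 37 members (43.2%), beside 33.0% of named genes.

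**Figure D2:**
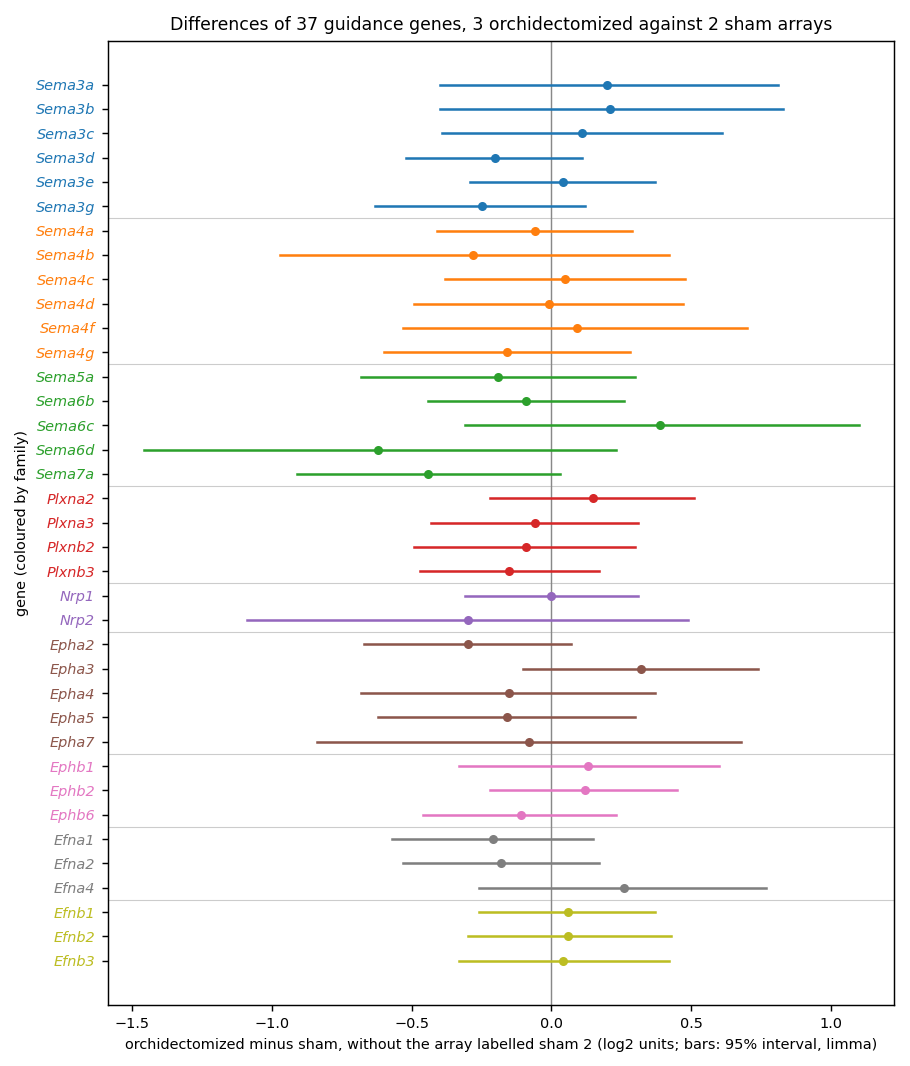
Points give the difference, orchidectomized minus sham, of 37 genes over 3 orchidectomized and 2 sham arrays in log2 units, and bars give limma's 95% interval. Every interval spans 0, and the widest is that of Sema6d, from -1.46 to 0.23.

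**Figure D3:**
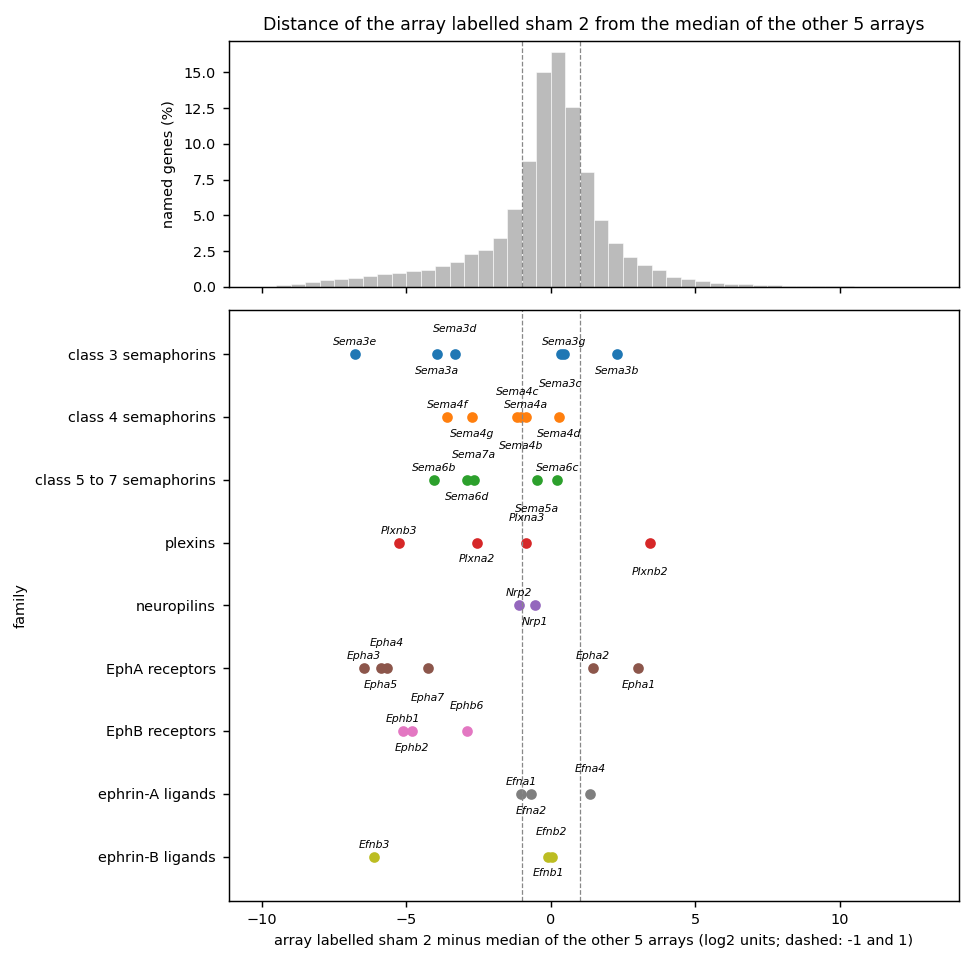
The upper panel shows the share of named genes by the distance of the array labelled sham 2 from the median of the other 5 arrays, in log2 units. The lower panel places 38 members on the same axis by family; 22 lie left of -1 and 5 lie right of 1, and the points of Sema3a, Sema3d, Sema3e, Epha3 and Ephb2 are not exact because they were not well above background there, nor is that of Epha1, which was not well above background elsewhere.

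Over all families the array labelled sham 2 had 22 of 38 counted members (57.9%) more than 1 log2 unit lower and 5 (13.2%) more than 1 log2 unit higher than the other arrays. Among all 12915 named genes counted in the same way the shares were 23.8% and 23.3%. A gene was counted when well above background on the array labelled sham 2 or on all of the other 5, which left out Efna5. Epha1 was counted through the array labelled sham 2 alone, and Epha3, Ephb2, Sema3a, Sema3d and Sema3e through the other 5 alone. The 5 higher members were Plxnb2, Epha1, Sema3b, Epha2 and Efna4. The median distance was -1.13 (SD over genes 2.73) for the members and 0.07 (SD over genes 2.32) for all named genes. By family it was -4.97 for EphA receptors, -4.79 for EphB receptors, -2.64 for class 5 to 7 semaphorins, -1.69 for plexins, -1.48 for class 3 semaphorins, -1.08 for class 4 semaphorins, -0.83 for neuropilins, -0.67 for ephrin-A and -0.09 for ephrin-B ligands. One array gives no spread, so these distances are values without a test, and they follow the same array on which the neuronal markers were low and the choroid plexus markers high.

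The stretches upstream of the start of 4 members are shown as examples of both directions on the array labelled sham 2, Sema3e and Epha3 lower and Plxnb2 and Epha1 higher there; they were picked after their values were seen. Apart from that of Plxnb2, their distances rest on values below background and have no exact rank. The sequences are the 250 bases before the RefSeq start on the GRCr8 assembly, 5′ to 3′ on the gene's strand, and capitals mark matches to the motifs named after them.
Sema3e, chr4:21510375-21510624, minus strand: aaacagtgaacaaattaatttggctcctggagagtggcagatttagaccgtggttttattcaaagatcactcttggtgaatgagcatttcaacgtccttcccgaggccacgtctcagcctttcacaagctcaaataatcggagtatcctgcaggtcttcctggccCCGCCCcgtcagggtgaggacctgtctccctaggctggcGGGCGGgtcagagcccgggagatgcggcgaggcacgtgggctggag
Epha3, chr11:14920426-14920675, minus strand: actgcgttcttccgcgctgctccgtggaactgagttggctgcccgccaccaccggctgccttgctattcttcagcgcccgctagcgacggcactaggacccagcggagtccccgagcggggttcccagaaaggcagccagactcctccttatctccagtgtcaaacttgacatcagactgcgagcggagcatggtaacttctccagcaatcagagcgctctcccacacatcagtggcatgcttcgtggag
Plxnb2, chr7:122137949-122138198, minus strand: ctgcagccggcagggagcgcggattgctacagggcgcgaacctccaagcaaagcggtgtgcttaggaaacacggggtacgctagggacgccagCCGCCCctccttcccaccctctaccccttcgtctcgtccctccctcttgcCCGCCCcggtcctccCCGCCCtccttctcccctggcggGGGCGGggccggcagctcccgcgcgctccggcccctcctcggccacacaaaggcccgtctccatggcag
Epha1, chr4:72227475-72227724, minus strand: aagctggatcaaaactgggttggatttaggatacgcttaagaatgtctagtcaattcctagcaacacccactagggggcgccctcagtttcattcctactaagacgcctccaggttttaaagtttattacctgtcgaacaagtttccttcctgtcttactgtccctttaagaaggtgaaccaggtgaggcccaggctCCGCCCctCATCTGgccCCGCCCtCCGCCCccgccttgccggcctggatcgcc
RefSeq entries were found for 32 of the 39 genes. Both strands were searched for the androgen response half-site AGAACA, the full androgen response element made of this half-site and its inverted repeat with 3 bases between, the OTX core TAATCC, the E-box CAGATG, the GC box GGGCGG and the TATA box TATAAA; the half-site is contained in the full element. The full element was in 0 of 32 member windows and 0.012% of all 33469 windows of this length, and the half-site was in 2 (Ephb6 and Sema6b, 6.25%) and 17.5%. The GC box was in 15 member windows (46.9%) and 30.5% of all, and the E-box in 2 (Epha1 and Sema6b) and 14.0%. The OTX core and the TATA box were each in 0 member windows, and in 6.34% and 12.9% of all. Plxnb2 held 4 GC boxes, Epha1 held 3 and an E-box, Sema3e held 2, and the Epha3 window held no listed motif. The median GC content was 58.8% for the members and 51.2% for all windows. A match is a run of letters and not a measured site.

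Among the class 3 semaphorins, which are secreted cues, all 6 members were tested and 0 were called in either fit. Their median difference was 0.47 over 6 arrays and 0.08 over 5. Sema3g, which acts on vessel and neuronal cells through neuropilin 2, measured -4.73, -4.81 and -5.05 on orchidectomized 1 to 3, -4.67 and -4.55 on sham 1 and sham 3, and -4.27 on the array labelled sham 2. The orchidectomized values were thus the 3 lowest. The difference was -0.37 with a standard error of 0.20 over 6 arrays (limma adjusted p 0.774) and -0.25 with 0.15 over 5 (limma adjusted p 0.988). With normexp background correction the difference was -0.10 over 6 arrays and -0.01 over 5. The second, dimmer probe of Sema3g gave 0.02 over 5 arrays. Sema3d measured -5.63, -5.72 and -5.55 in the orchidectomized group and -5.45 and -5.41 on sham 1 and sham 3, a difference of -0.20 over 5 arrays, and its second probe gave 0.00. Sema3b measured -2.49, -2.59 and -1.92 against -2.36 and -2.73, where the groups overlapped. Sema3b was higher on the array labelled sham 2, at -0.18.

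Sema3e, the ligand of plexin D1 that acts without a neuropilin, was steady on the 5 arrays other than sham 2. It measured -2.95, -3.09 and -2.96 on orchidectomized 1 to 3 and -2.96 and -3.13 on sham 1 and sham 3, and its standard deviation over the 5 arrays was 0.09 beside a median of 0.19 over the members. It was not well above background on the array labelled sham 2 and at least 22.6-fold brighter on the other 5. The fitted difference, whose size over 6 arrays is not exact because of this dim value, was 2.27 with a standard error of 1.89 over 6 arrays (limma adjusted p 0.774) and 0.04 with 0.13 over 5 (limma adjusted p 0.988). Sema3a, the classical repellent of cortical and hippocampal axons, was at least 3.13-fold and Sema3d at least 3.91-fold brighter on the other 5 arrays. Sema3c, which was outside the rule for named genes, lay within their range at -1.51.

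The class 4 semaphorins, membrane proteins that include the plexin B ligands Sema4c and Sema4d, had 0 of 6 called and medians of 0.34 over 6 arrays and -0.04 over 5. Sema4b measured -0.30, -0.35 and -1.13 on the orchidectomized arrays and -0.23 and -0.40 on sham 1 and sham 3. Only orchidectomized 3 was low, and the second probe of Sema4b was likewise lowest on it, with -4.88 on that array and -3.64 to -3.34 on the other 4. The difference was -0.28 over 5 arrays and -0.01 without orchidectomized 3. Sema4g and Sema4a differed by -0.16 and -0.06 over 5 arrays. Sema4f had -4.36 on the array labelled sham 2, a distance of -3.57 from the median of the other 5 arrays, and Sema4g, at -4.89, and Sema4c, at -4.23, were lower as well. Sema4d, outside the naming rule, was at -4.26 there, within the -4.57 to -4.16 of the others.

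Of the class 5 to 7 semaphorins, 0 of 5 were called, with medians of 0.44 over 6 arrays and -0.19 over 5. Sema7a, the lipid-anchored member that binds plexin C1 and integrins, had the smallest unadjusted p of all members without the array labelled sham 2. It measured 0.44, 0.44 and -0.03 on orchidectomized 1 to 3 and 0.74 and 0.72 on sham 1 and sham 3, so the 2 groups did not overlap. The means were 0.29 ± 0.28 (SD, n = 3) and 0.73 ± 0.01 (SD, n = 2), and the difference of -0.44 had a standard error of 0.19 and an interval of -0.91 to 0.03 (limma adjusted p 0.988). Orchidectomized 3 was the lowest, and the difference was -0.29 without it. Against sham 1 alone the difference was -0.77 on the slide that held it and orchidectomized 3, and -0.45 on the first scan day. The gene was at -2.20 on the array labelled sham 2, and with that array the difference turned to 0.53, SE 0.85 (limma adjusted p 0.804).

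Sema6d, a transmembrane ligand of plexin A1, measured 0.11, 0.14 and -0.86 on the orchidectomized arrays and 0.58 and 0.24 on sham 1 and sham 3. The difference of -0.62 had a standard error of 0.34 (limma adjusted p 0.988), and it was -0.29 without orchidectomized 3 and -1.44 within the shared slide. Its second probe gave -0.27. Sema6c measured 4.19, 4.32 and 5.03 against 4.28 and 3.96, with orchidectomized 3 the highest. The difference of 0.39 fell to 0.13 without that array, and the second Sema6c probe gave -0.01. Sema6b was at -2.00 on the array labelled sham 2 and between 1.94 and 2.19 on the others. Sema5a, outside the naming rule, had 0.11 and -0.13 on sham 1 and sham 3, -0.06, -0.04 and -0.51 on the orchidectomized arrays and -0.52 on the array labelled sham 2.

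The plexins are the signalling receptors of semaphorins, and 0 of the 4 named on the array were called. Their medians were 0.60 over 6 arrays and -0.08 over 5. Plxna1, Plxnc1 and Plxnd1, which encode receptors mentioned above, were not among the members. Plxnb2, a receptor of class 4 semaphorins that is active in progenitors and epithelia, measured -1.23, -1.22 and -1.57 on the orchidectomized arrays and -1.25 on both sham 1 and sham 3. It was at 2.19 on the array labelled sham 2, the largest upward distance among the members well above background on all 6 arrays. The difference was -1.24 with a standard error of 0.99 over 6 arrays (limma adjusted p 0.774) and -0.09 with 0.16 over 5 (limma adjusted p 0.988). Plxnb3, a plexin of oligodendrocytes and the receptor of Sema5a, lay on the other side on that array, at -6.37 against -1.27 to -1.04. On the remaining arrays Plxnb3 measured -1.27, -1.12 and -1.27 in the orchidectomized group and -1.09 and -1.04 in the sham group, a difference of -0.15. Plxna2, a receptor of Sema6a and of class 3 semaphorins, measured -3.43 on the array labelled sham 2 and -1.15 to -0.80 on the others, and it differed by 0.15 over 5 arrays. Plxna3, outside the naming rule, was at -4.21 there and between -3.42 and -3.15 elsewhere.

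Both neuropilins, the co-receptors of class 3 semaphorins, were tested and 0 were called. Nrp1, which also binds vascular endothelial growth factor, was the steadiest member, with a standard deviation of 0.05 over the 5 arrays. It measured -1.31, -1.40 and -1.41 on orchidectomized 1 to 3, -1.42 and -1.32 on sham 1 and sham 3, and -1.95 on the array labelled sham 2. The 5-array difference was 0.00 with an interval of -0.31 to 0.31. Nrp2, the co-receptor of Sema3f, measured -5.69, -5.22 and -5.39 against -4.64 and -5.63, with sham 1 the highest. Its 5-array difference of -0.30 ranged from -0.79 to 0.19 when a further array was left out.

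The EphA receptors lay on both sides of the other arrays on the array labelled sham 2. Of the 6, Epha3, Epha4, Epha5 and Epha7 had measured distances of -6.46 to -4.26 there, that of Epha3 not exact, while Epha1 and Epha2 were higher. Epha4, a receptor for ligands of both ephrin classes that is dense on hippocampal neurons and astrocytes, measured 3.62, 3.60 and 3.05 on orchidectomized 1 to 3 and 3.60 and 3.56 on sham 1 and sham 3, and -2.06 on the array labelled sham 2. Epha5 measured 1.44, 1.46 and 1.02 against 1.57 and 1.36, and -4.44 there. Epha7, outside the naming rule, measured -5.75 there and -2.20 to -1.25 on the others. In all 3 genes orchidectomized 3 was the lowest of the 5 arrays other than sham 2, whereas the second probe of Epha4 had 2.49 on it, inside the 2.33 to 2.60 of the others.

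Epha3 measured -2.52, -2.35 and -2.15 on the orchidectomized arrays and -2.80 and -2.52 on sham 1 and sham 3, with the value of orchidectomized 1 just above that of sham 3 before rounding. It was not well above background on the array labelled sham 2 and at least 33.2-fold brighter on the other 5. The difference, again not exact over 6 arrays, was 2.43 with a standard error of 1.79 over 6 arrays (limma adjusted p 0.774) and 0.32 with 0.17 over 5, with an interval of -0.10 to 0.74 (limma adjusted p 0.988). On the shared slide it was 0.65, and on the first scan day 0.46, both against sham 1. Epha2, an EphA receptor typical of epithelia, measured -4.04, -4.03 and -4.31 against -3.87 and -3.77, and -2.55 on the array labelled sham 2. The difference was -0.73 with a standard error of 0.40 over 6 arrays (limma adjusted p 0.774) and -0.30 with 0.15 over 5 (limma adjusted p 0.988). With normexp background correction the Epha2 difference was -0.40 over 6 arrays and -0.06 over 5. The second Epha2 probe stayed below the background limit on all 6 arrays. Epha1, likewise an epithelial receptor and outside the naming rule, was well above background on the array labelled sham 2 alone, where its intensity exceeded that of the other 5 at least 2.23-fold. Neither the EphA median of 1.73 over 6 arrays nor that of -0.15 over 5 included Epha1.

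EphB receptors bind ephrin-B ligands, and some cluster NMDA receptors at synapses. The 3 EphB receptors among the members were all lower on the array labelled sham 2. Ephb1 measured -1.03, -0.83 and -0.51 on orchidectomized 1 to 3, -0.86 and -0.99 on sham 1 and sham 3, and -5.97 on that array. Its 5-array difference was 0.13 with the brighter probe and -0.14 with the second. Ephb2 was at least 19.3-fold brighter on the other 5 arrays, where it measured -3.15, -3.25 and -3.20 against -3.20 and -3.43. Ephb6, which lacks kinase activity, measured 1.42, 1.39 and 1.49 against 1.42 and 1.67, and -1.47 on the array labelled sham 2. The EphB median was 1.67 over 6 arrays and 0.12 over 5, with 0 of 3 called in both.

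The ephrins, ligands of these receptors, showed a mixed pattern on the array labelled sham 2. Of the 6 counted, 2 lay more than 1 log2 unit below the median of the other arrays there, 1 lay above and 3 lay within 1 log2 unit. The corresponding counts were 7, 2 and 0 for the 9 Eph receptors, and the difference between these shares was not tested. Among these receptors Epha1 was counted through the array labelled sham 2 alone, and Epha3 and Ephb2 through the other arrays alone. Efna5 was not counted among the ephrins. Efnb3, the neuronal ephrin-B ligand of the midline and of forebrain synapses, measured 3.26, 3.33 and 3.53 on orchidectomized 1 to 3, 3.23 and 3.43 on sham 1 and sham 3, and -2.79 on the array labelled sham 2. The other ephrin-B ligands lay within 1 log2 unit there. Efnb1 was at -4.08 against -4.05 to -3.89, and Efnb2, an arterial and progenitor ligand, was at -3.23 against -3.39 to -3.06. Their 5-array differences were 0.06 each, and 0.04 for Efnb3.

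The ephrin-A ligands had 0 of 3 tested genes called. Efna1, a ligand of endothelium and epithelium, measured -0.55, -0.40 and -0.71 on the orchidectomized arrays and -0.31 and -0.38 on sham 1 and sham 3, so the groups did not overlap and differed by -0.21, SE 0.14 (limma adjusted p 0.988). It was at -1.42 on the array labelled sham 2. Efna2 measured -4.00, -4.12 and -4.29 against -3.97 and -3.95, a difference of -0.18, and its second probe gave -0.24. The probes of Efna2 disagreed on the array labelled sham 2, since the brighter one was at -4.67 and the second was not well above background and at least 8.17-fold brighter elsewhere. Efna4 measured -3.42, -3.95 and -3.45 against -3.74 and -3.99, with overlapping groups, and -2.38 on the array labelled sham 2. Efna5, a major topographic cue outside the naming rule, was well above background on orchidectomized 2 alone, so no group difference was read from its probe.

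**Figure D4:**
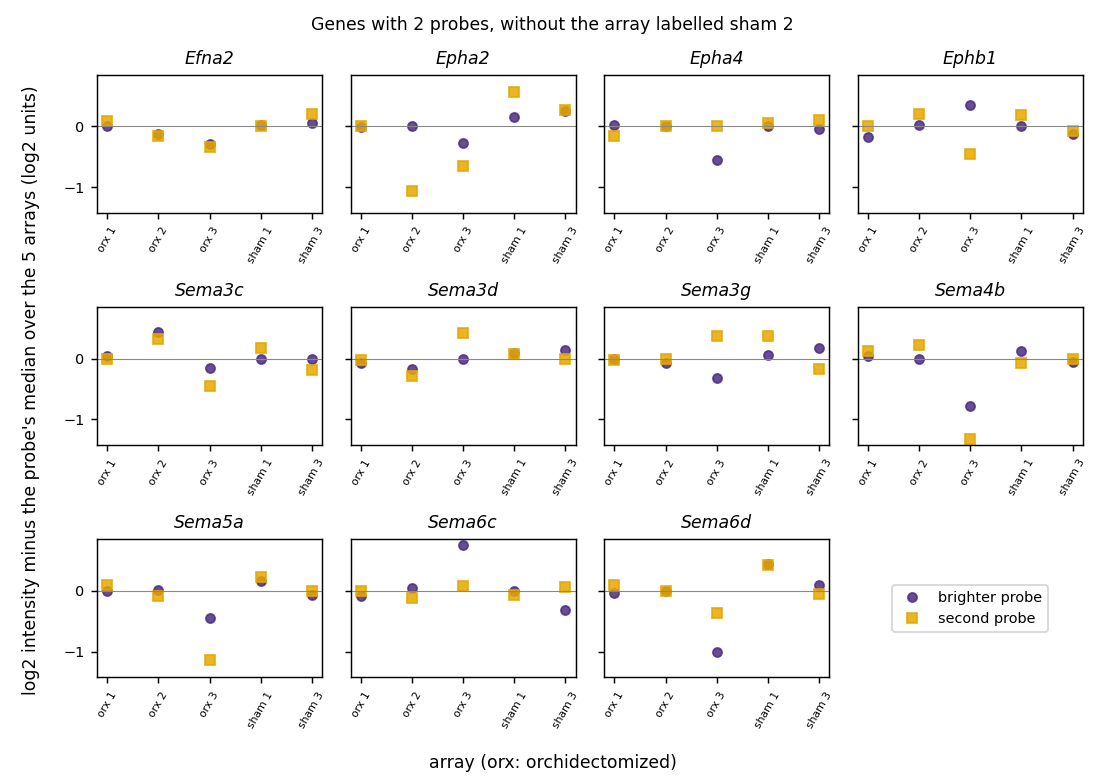
Each panel is 1 of the 11 genes with 2 probes, and points give the log2 intensity of each probe on 5 arrays minus its own median over them. Both probes of 5 genes (Efna2, Sema3c, Sema4b, Sema5a and Sema6d) are lowest on orchidectomized 3, though not always by the same distance. In Epha2, Epha4 and Sema3g only the brighter probe is lowest there, in Ephb1 only the second, and in Sema3d and Sema6c neither.

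Of the 39 genes, 11 had 2 probes and 28 had 1. Both probes of 10 of these genes passed the brightness filter, and Ephb1, Sema3c, Sema3g and Sema6c gave opposite signs over 5 arrays, with probe differences 0.28, 0.14, 0.27 and 0.40 apart. Sema6d gave -0.62 and -0.27, Sema5a -0.19 and -0.49, Epha4 -0.15 and -0.13 and Sema4b -0.28 and -0.29. In 9 of these 10 genes the distance of the array labelled sham 2 had the same sign with both probes, Sema3g being the exception.

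Lists of other guidance and signalling genes gave 0 calls as well. In the netrin and slit list, 16 of 22 genes were named on the array. Of these, 14 were tested and 0 were called in either fit, with medians of 0.91 over 6 arrays and -0.06 over 5. Robo2, a slit receptor, differed by -0.32 and Slit2, a slit ligand, by 0.34 over 5 arrays. For semaphorin signalling and co-receptors 30 of 32 genes were tested with 0 called and medians of 0.52 and 0.04. Mras, a small GTPase of the Ras family, measured 2.71, 2.83 and 3.14 in the orchidectomized group and 2.56 and 2.31 on sham 1 and sham 3, which differ by 0.46, SE 0.18 (limma unadjusted p 0.0478, adjusted p 0.988), and Dpysl3, a collapsin response mediator, differed by 0.30. In the Eph signalling list 27 of 32 genes were tested with 0 called and medians of 0.01 and -0.05. The adaptor gene Nck1 differed by -0.26 and Sdcbp, which encodes syntenin, by 0.31. The netrin receptor gene Dcc was at least 41.8-fold and Crmp1 at least 73.0-fold dimmer on the array labelled sham 2 than elsewhere. The cell adhesion gene Nrcam was 294-fold dimmer there by its measured value, which was not well above background. Robo2, the exchange factor gene Ngef and the chimaerin gene Chn1 had distances of -7.41, -5.77 and -5.65 there. In that array 10 of 14 netrin and slit genes, 17 of 30 semaphorin signalling genes and 9 of 27 Eph signalling genes were more than 1 log2 unit lower, beside 23.8% of named genes. In each of these lists 3 genes were more than 1 log2 unit higher there, beside 23.3% of named genes. The median distances of the lists were -2.18, -1.66 and -0.09.

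The arrays had 23785 to 26173 of 30367 probes well above background, and precision is limited by there being 3 arrays per group. No member was saturated on any array. The labels call the samples biological replicates without saying more, so the p-values measure the spread between these samples. Orchidectomized 3 and sham 1 shared slide 2, orchidectomized 1 and 2 shared slide 1, and the remaining arrays had a slide each. Sham 2 and sham 3 were scanned on the second day and the other 4 arrays on the first. The median difference of the members was -0.16 within slide 2, which compares orchidectomized 3 with sham 1, and -0.06 on the first scan day, which compares the 3 orchidectomized arrays with sham 1.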

How the data were processed

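Agilent Feature Extraction 10.5.1.1 gave the background-subtracted processed intensity of each spot in 1 channel, per the file headers. The authors' deposited values minus the log2 of these intensities had a median over probes of -0.32 to 0.72 per array. How far that difference varied between probes is not given. The scale of the deposited values is log2, 1-colour values have no direction, and the origin of the offsets from the processed intensities stays unknown. Their column medians ran from 7.62 to 8.05. Saturation and above-background flags, 0 or 1 per spot, come from the scanner software, per the file headers, and were used unchanged. The headers name another genome build than the reference, so only the promoter windows carry coordinates.

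Of 44254 spots, 1377 control spots and spots with an outlier flag were left out. Log2 values were averaged per probe and each array's 75th percentile was subtracted. A probe was well above background when at least 50% of its spots were. RefSeq accessions, without versions, named 18004 of 30367 probes through the GRCr8 gene table; 12363 stayed unnamed. The rule for members named a gene name column, which was replaced by these symbols.

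Probes that were well above background throughout 1 group or both were fitted with limma 3.58.1 (lmFit and eBayes; R 4.3.3) in a two-sided test, adjusted by Benjamini-Hochberg over all tested probes. The fits were tested on simulated data. Members, lists and tests were chosen with earlier results of these data known. Named genes were, per family, up to 3 with the smallest unadjusted p without the array labelled sham 2 and up to 3 farthest from the other arrays on it, and up to 2 of each per related list; members outside the rule are marked. Differences over 6 arrays are given for Epha2, Epha3, Sema3g, Plxnb2, Sema3e and Sema7a, which were picked after their values were seen. Folds written "at least" set the mean of the brighter side against the dim value or the array's lowest value well above background, whichever was higher. That lowest value was taken over all probes, so these folds are not strict limits for a single probe. Alternatives were other background corrections, scalings, filters, variance models, array weights, the authors' deposited values, the replicate number, slide or scan day as a block, and leaving out each array.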

Additional observations from a re-analysis of the deposited data

How the results depend on the processing

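The count of members called was 0 in both comparisons under every alternative run, leaving out each array included. Over all features, limma called 1 probe with quantile normalization and 1 with array weights over 6 arrays. Without the array labelled sham 2 it called 2 with quantile normalization, 1 with median scaling, 18 with the authors' deposited values, 6 with array weights and 10 with scan day as a block, and 0 to 251 when a further array was left out, with 251 without sham 3 and 22 without sham 1, where the lone sham array was assumed to vary like the other group. None of these were members.

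The median of the members over 6 arrays, 0.44 as reported, was 0.25 with probes well above background on every array, 0.00 with array weights, -0.06 with scan day and -0.16 with slide as a block, and it ran from -0.06 (without the array labelled sham 2) to 0.70 when single arrays were left out. Without the array labelled sham 2 it was 0.04 with normexp, where the median of all probes was 0.083, -0.01 with the authors' deposited values, -0.03 with array weights and -0.16 with slide as a block, and it ran from -0.13 to -0.01 when a further array was left out. Median scaling put the median of all probes over 6 arrays at -0.101. Counts on the array labelled sham 2 ran from 4 to 5 members higher and from 16 to 23 lower over the alternatives run, 16 being the count with normexp.

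The sign turned in these cases, none of them a called difference. Over 6 arrays Sema7a had -0.29 with array weights, -0.77 with a slide block, -0.45 with a scan day block, and -0.44 to 1.02 when single arrays were left out, and Sema3e had -0.04 with scan day as a block. Without the array labelled sham 2, normexp gave 0.02 for Efna2, 0.12 for Nrp2 and 0.24 for Sema3d, quantile normalization gave -0.02 for Efnb3, and array weights gave -0.03 for Efnb3 and 0.01 for Plxnb2. Slide as a block gave 0.07 for Ephb6 and -0.08 for Plxna2, and scan day as a block gave 0.01 for Ephb6 and -0.04 for Sema3e. When a further array was left out, the ranges were -0.01 to 0.15 for Efnb2, -0.06 to 0.14 for Efnb3, -0.15 to 0.02 for Plxnb2, -0.13 to 0.01 for Sema4a, -0.79 to 0.19 for Nrp2, -0.24 to 0.01 for Ephb6 and -0.04 to 0.13 for Sema3e. The cause was not tested.

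Whether the replicate numbers of the labels pair the arrays could not be settled. The deviations from the group means of same-numbered arrays correlated at 0.03, -0.02 and -0.02 over 6 arrays and at 0.18 and -0.06 for numbers 1 and 3 over 5. Over 5 arrays the deviations of sham 1 and sham 3 are equal and opposite, so the values for these numbers are not independent. With the replicate block 0 members and 0 probes were called over 6 arrays, with a member median of 0.44, and the 5-array median was -0.06.

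The small number of arrays and signals near background limit what can be read for Efna5, Epha1 and the dimmer probe of Epha2.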
